A study of Mus musculus with 9 samples.

Results

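A set of 10 genes that are rarely named in work on motor neurons were followed here across 3 motor neuron pools of the mouse: Rnf152, Ndnf, Wdr48, Cpne4, Fign, Sgpp2, Krt25, Nrn1, Lrrc38 and Pirt. They are 10 of the 18193 genes measured, and they were chosen by their intensities in these same arrays, as markers of 1 or both of the pools that are relatively spared in amyotrophic lateral sclerosis (ALS). Their own levels and differences are therefore given as a description, with no test. The 10 genes were covered by 18 probe sets that name them alone, 5 genes by 1 probe set and 5 by more than 1.

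The arrays came from wild-type male C57BL/6J mice at postnatal day 7, with no treatment in any group. Motor neurons were cut by laser from 12 µm frozen sections stained with cresyl violet, about 200 of each pool from each of 3 animals. The pools were the oculomotor nucleus of the midbrain (OMN), which moves the eye, the dorsolateral nucleus at lumbar level 6 (DL), which serves the pelvic sphincters, and motor neurons of lumbar level 5 (L5), which serve the hind limb. In ALS, limb motor neurons die while OMN and DL neurons are largely kept. Each pool had 3 arrays, so that there were 9 in all, and beyond the stain no criterion for picking a motor neuron is on record here. The labels call the arrays biological replicates, and the p-values below measure the spread between them.

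The arrays give a linear intensity for each probe set, scaled on every array to the same trimmed mean, and their number limits the precision. The median intensity was 33.6 to 35.5 on OMN arrays, 26.4 to 29.7 on DL arrays and 32.0 to 34.3 on L5 arrays. Control probe sets for bacterial transcripts reached 18.3 at most, and values at or under 18.3 are taken as noise. The ratio of 3' to 5' Gapdh signal, which rises when RNA is degraded, stood at 3.27, 2.44 and 3.75 on DL arrays 1, 2 and 3, against 2.33 to 2.67 on OMN and 2.45 to 2.53 on L5 arrays. The captured material was checked with 8 motor neuron markers. The choline transporter Slc5a7 averaged 4107 in OMN, 3230 in DL and 4074 in L5, and the vesicular acetylcholine transporter Slc18a3 averaged 2478, 1662 and 2828 in the same order of pools. Chat, the enzyme that makes acetylcholine, has 1 probe set here. It was near the noise level in OMN and DL and under it in L5, with means of 22.3 in OMN, 15.6 in DL and 6.10 in L5. Of the other markers, the homeodomain factor Isl1 was higher than L5 in both spared pools, with means of 2129 in OMN and 2717 in DL, against 598 in L5 (limma adjusted p = 0.0122 and 0.00770). The intermediate filament protein Prph (peripherin) was lower in OMN, at 4844, against 10257 in L5 (adjusted p = 0.0352). Each of these calls was lost in some of 17 alternative settings, that of Isl1 kept in 11 for OMN and 14 for DL and that of Prph in 6. Chodl, Slit2 and Ache made no call in any comparison. In tissue of this kind, fewer cells of a type and less RNA per cell cannot be told apart.

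The 10 proteins belong to unrelated systems. Rnf152 is a ubiquitin ligase of the lysosome that restrains the growth kinase complex mTORC1, Wdr48 is the activating partner of several deubiquitinases, and Cpne4 is a copine, a protein that binds membranes when calcium is present. Fign is a microtubule-severing enzyme, Sgpp2 removes phosphate from the lipid signal sphingosine 1-phosphate, and Lrrc38 is an accessory subunit of the large-conductance calcium-activated potassium (BK) channel. Ndnf is a secreted neurotrophic protein, Nrn1 (neuritin) is a lipid-anchored protein that neurons make upon activity and that promotes neurite growth, Krt25 is a keratin of the hair root sheath, and Pirt is a membrane protein of sensory neurons that modulates the TRPV1 and TRPM8 channels.

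On the brightest probe set of each gene, the 3 OMN arrays all lay above the 3 L5 arrays for 9 of the 10 genes, Pirt being the exception, where 12.8% of all genes did so. They all lay below L5 for 0 of the 10, against 14.6% of all genes. The 3 DL arrays all lay above L5 for 5 genes, Rnf152, Ndnf, Wdr48, Cpne4 and Pirt, against 9.67% of all genes, and all below L5 for 3, Fign, Sgpp2 and Lrrc38, against 13.8%. The OMN arrays all lay above the DL arrays for 5 genes, Fign, Sgpp2, Krt25, Nrn1 and Lrrc38 (11.6% of all genes), and all below them for 2, Ndnf and Pirt (9.51%). Since this pattern is what chose the genes, nothing is read from these counts. They show that the label of a marker of the spared pools covers 4 different orders of the pools: 4 genes higher in both spared pools than in L5, 3 genes with L5 between a high OMN and a low DL, 2 genes high in OMN with DL and L5 overlapping, and 1 gene high in DL. Without DL array 3 the counts of genes above L5 in DL and above DL in OMN were 6 each. Leaving out an array can only keep or raise such a count.

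**Figure D1:**
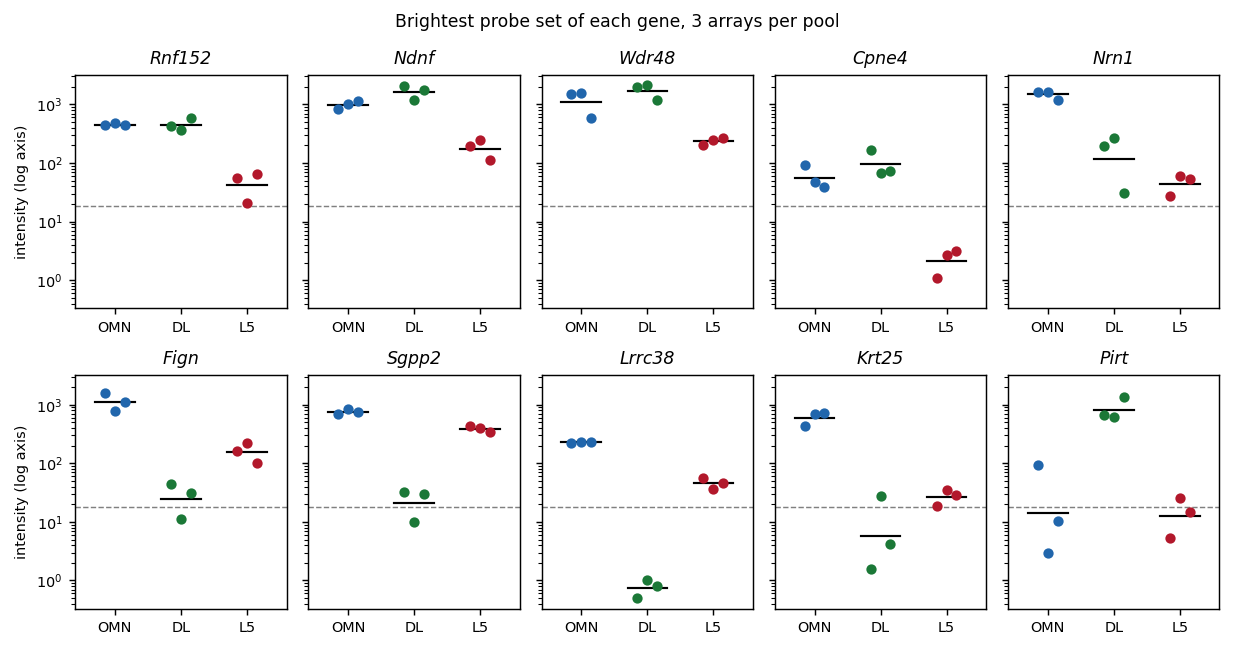
Intensity (log axis) of the brightest probe set of each of the 10 genes on the 3 OMN, 3 DL and 3 L5 arrays, with the geometric mean as a bar and the noise level of 18.3 as a dashed line. Rnf152, Ndnf, Wdr48 and Cpne4 lie above L5 in both OMN and DL, whereas Fign, Sgpp2 and Lrrc38 are lowest in DL.

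Rnf152, Ndnf, Wdr48 and Cpne4 were the 4 genes that stood above L5 in both spared pools. Rnf152 (GRCm38.p6 chr1:105276917-105356991) had intensities of 442.7, 473.9 and 437.6 in OMN and 431.5, 359.6 and 593.8 in DL, against 55.6, 20.9 and 64.1 in L5. The OMN and DL arrays overlapped and all 6 lay far above L5. The geometric mean was 10.7-fold that of L5 both in OMN and in DL, and the log2 difference, on the scale of log2(intensity + 16), was 2.97 ± 0.27 (SE of the fit, n = 3 arrays per pool) for OMN minus L5 and 2.97 ± 0.27 for DL minus L5. Among the 10 genes it had the closest levels in the 2 spared pools, with a log2 difference of 0.00 ± 0.27 between OMN and DL.

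Ndnf (chr6:65671611-65712323) was at 841.4, 1014.9 and 1132.6 in OMN and 2026.4, 1190.3 and 1784.0 in DL, against 191.8, 243.5 and 112.7 in L5. All DL arrays lay above all OMN arrays, and all OMN arrays above all L5 arrays. OMN was 5.69-fold and DL 9.35-fold higher than L5, and DL was 1.64-fold higher than OMN. A dimmer second probe set had 46.2, 44.9 and 48.5 in OMN and 53.3, 0.9 and 21.4 in DL, against 15.8, 16.5 and 3.4 in L5. It placed OMN at least 2.54-fold above L5, but its DL arrays ran from noise to above OMN and overlapped with both other pools. When the log2 values of both probe sets were averaged, the order of OMN and DL turned round, with a log2 difference for OMN minus DL of 0.06 in place of -0.71.

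Wdr48 (chr9:119894895-119926586) depended most on the probe set. Its brightest probe set, 1443836_x_at, had 1485.4, 1595.9 and 592.3 in OMN and 1983.5, 2133.3 and 1193.8 in DL, against 200.9, 247.1 and 267.4 in L5, so that both spared pools lay above L5, by 4.73-fold and 7.25-fold. The suffix x in the name of an Affymetrix probe set marks probes that may also match other transcripts. The probe set 1426723_at gave 314.9, 199.8 and 213.9 in OMN and 90.1, 316.6 and 178.8 in DL, against 86.0, 143.5 and 88.4 in L5. The probe set 1452162_at gave 246.9, 230.4 and 203.7 in OMN and 222.9, 107.2 and 60.2 in DL, against 114.3, 129.3 and 157.6 in L5. On these 2 probe sets OMN stayed above L5, by 2.31-fold and 1.71-fold, while the DL arrays spanned or overlapped the L5 values. The remaining probe set, 1447765_at, was between 1.2 and 28.6 on all arrays, around the noise level. The excess of Wdr48 in DL was thus present on 1 of 4 probe sets and its excess in OMN on 3 of 4.

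Cpne4 (chr9:104566701-105034544) was dim, with 90.8, 48.3 and 38.9 in OMN and 168.8, 68.2 and 73.5 in DL, against 1.1, 2.7 and 3.1 in L5. The L5 arrays were all within noise, so that OMN was at least 3.03-fold and DL at least 5.17-fold higher than L5, and the OMN and DL arrays overlapped. The second Cpne4 probe set, 1453888_at, was between 9.5 and 25.7 on all 9 arrays and showed no order of the pools.

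**Figure D2:**
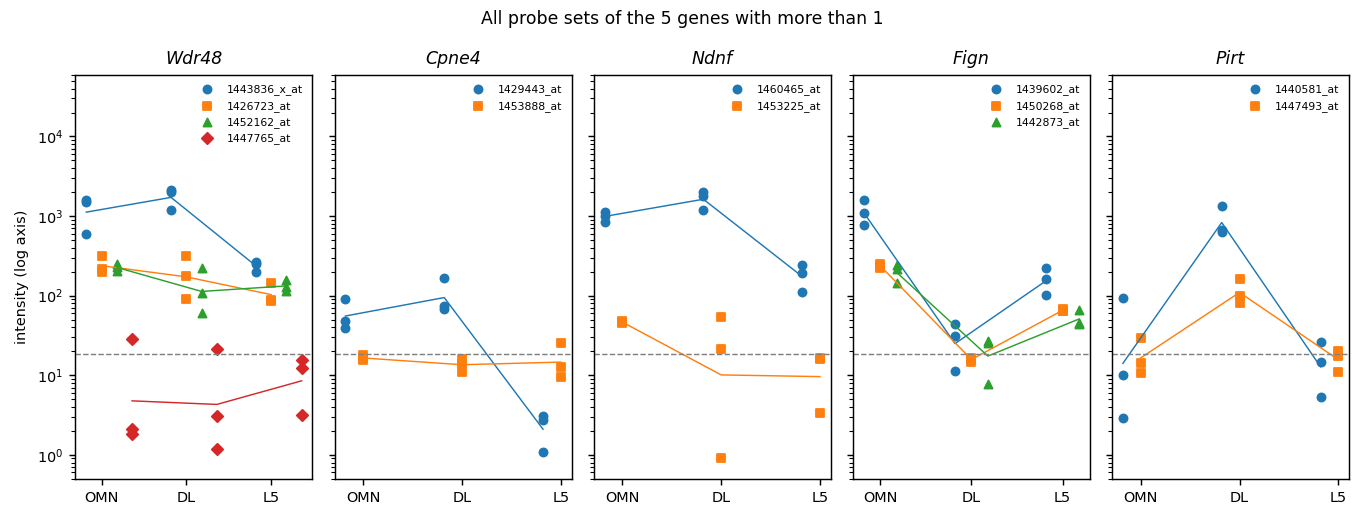
Intensity (log axis) of every probe set of the 5 genes with more than 1, by pool, with 3 arrays per pool as points, geometric means joined by lines and the noise level dashed. The probe sets of Fign and of Pirt keep 1 order of the pools, whereas DL lies clearly above L5 on only 1 of the 4 Wdr48 probe sets and 1 of the 2 each for Cpne4 and Ndnf.

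The patterns of these 4 genes were compared with each other and with other genes, for Wdr48 on the probe set 1443836_x_at. The 4 were grouped by standing above L5 in both spared pools, so that they are alike in part by that choice. Likeness was measured as the root mean square difference of log2 values over the 9 arrays after each gene had been centred on its mean, among 9553 other genes with a mean of at least 100 in some pool. Wdr48 and Cpne4 differed by 0.43, the smallest value among the 45 pairs of the 10 genes, and Ndnf and Cpne4 by 0.52. Gad2, an enzyme that makes the inhibitory transmitter GABA, was the nearest other gene for Rnf152 (0.52), Ndnf (0.29) and Wdr48 (0.44). Syt1, a calcium sensor of synaptic vesicle release, was the nearest for Cpne4 (0.33) and the second for Ndnf (0.31) and Wdr48 (0.46). Ebf1, a transcription factor, came second for Rnf152 (0.53), and Syt9, another synaptotagmin, for Cpne4 (0.35). Gad2 averaged 1312 ± 119.6 in OMN and 2340.1 ± 339.8 in DL, against 269 ± 18.4 in L5 (SD, n = 3), and both of its probe sets placed the pools in the same order. Syt1 averaged 2224 ± 335 in OMN and 3378 ± 482 in DL, against 442 ± 112 in L5, an order held by 3 of its 4 probe sets.

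Among markers of inhibitory neurons, Gad1 and Gad2 had the order of these 4 genes, and Slc6a5 and Slc32a1 did not. Gad2 had been found above by its likeness to Rnf152, Ndnf and Wdr48, so that its order is not a separate result among the inhibitory markers. Of 6 such markers 4 were measured, and their summed intensity was 1852 to 2674 in OMN and 5017 to 5875 in DL, against 1628 to 2232 in L5. Gad1 and Gad2 were higher than L5 in both spared pools (limma adjusted p = 0.0370 and 0.00291 in OMN, and 0.0299 and 0.00307 in DL), Gad2 in all 17 alternatives, and Gad1 in 8 of them for OMN and 7 for DL. Slc6a5, the glycine transporter of inhibitory terminals, was lower in OMN than in L5 at 22.6 ± 14.7 against 551 ± 90.2 (adjusted p = 0.00184) and stood at 707 ± 248 in DL. Slc32a1, which loads GABA and glycine into vesicles, averaged 475 in OMN, 1882 in DL and 963 in L5. All 4 were above noise on every DL and L5 array, and Slc6a5 on 1 of 3 OMN arrays. The part of such cells in the levels of the 4 genes was not tested.

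Fign, Sgpp2 and Lrrc38 shared another order, in which OMN was high, L5 lay between and DL was at or near noise. Their promoters are shown because the 3 genes share this order, and that of Krt25, a gene high in OMN alone, is set beside them. The sequences are the 250 bases before a RefSeq start site on the strand of the gene, from GRCm38.p6: chr2:64098039-64098288 on the minus strand for Fign, chr1:78310096-78310345 on the plus strand for Sgpp2, chr4:143349500-143349749 on the plus strand for Lrrc38 and chr11:99322952-99323201 on the minus strand for Krt25. The windows of Sgpp2 and Lrrc38 lie within the span of the gene, so that the start they precede is not the outermost one. Capitals mark matches, on either strand, to the TATA box (TATAAA), the motif of the factor NF-Y (CCAAT), the GC box of Sp factors (GGGCGG), a core bound by many homeodomain factors (TAATTA) or the cyclic AMP response element (TGACGTCA).
Fign: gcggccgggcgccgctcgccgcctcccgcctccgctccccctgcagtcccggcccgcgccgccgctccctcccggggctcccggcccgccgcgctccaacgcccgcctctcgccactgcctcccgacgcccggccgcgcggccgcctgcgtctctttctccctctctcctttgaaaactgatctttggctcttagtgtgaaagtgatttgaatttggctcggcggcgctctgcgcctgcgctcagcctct
Sgpp2: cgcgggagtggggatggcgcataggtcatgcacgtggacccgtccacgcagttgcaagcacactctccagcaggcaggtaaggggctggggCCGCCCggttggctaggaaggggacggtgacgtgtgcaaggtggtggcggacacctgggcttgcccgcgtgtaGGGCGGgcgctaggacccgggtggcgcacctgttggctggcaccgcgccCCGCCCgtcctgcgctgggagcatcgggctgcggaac
Lrrc38: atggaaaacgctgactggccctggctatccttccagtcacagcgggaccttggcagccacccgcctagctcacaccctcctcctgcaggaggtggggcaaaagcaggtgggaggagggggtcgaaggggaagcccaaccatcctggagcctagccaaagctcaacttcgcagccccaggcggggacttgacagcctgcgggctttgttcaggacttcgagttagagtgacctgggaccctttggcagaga
Krt25: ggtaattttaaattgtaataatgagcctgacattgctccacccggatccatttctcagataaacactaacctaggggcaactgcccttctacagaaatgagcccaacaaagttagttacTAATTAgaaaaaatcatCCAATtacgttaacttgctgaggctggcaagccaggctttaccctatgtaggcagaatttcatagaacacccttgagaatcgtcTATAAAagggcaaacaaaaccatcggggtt

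The 3 genes with this order did not share a match to these motifs. Sgpp2 held GGGCGG 3 times, a motif found in 32.7% of the 32851 promoter windows of the same length, and neither Fign nor Lrrc38 held any of the 5 motifs. Krt25 held TATAAA 30 bases before the start (12.4% of windows), CCAAT (33.8%) and TAATTA (4.84%), and no 2 of these matches overlapped. The content of G and C was 72.4% for Fign, 70.8% for Sgpp2 and 61.6% for Lrrc38, against 40.8% for Krt25 and a median of 52.4% over all windows. The ratio of observed to expected CpG pairs was 1.12 for Fign, above 98.3% of windows or equal to them, 0.79 for Sgpp2, 0.34 for Lrrc38 and 0.39 for Krt25, with a median of 0.37. Of the other members, Wdr48 held GGGCGG 2 times, 1 of the 2 windows of Cpne4 held it once and the other window held CCAAT, and Rnf152 held none of the motifs. Windows were found for 7 of the 10 genes, and Ndnf, Nrn1 and Pirt had none in the table. A match is a description of the letters only.

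Fign (gene chr2:63971508-64098038) had 1581.1, 776.6 and 1098.2 in OMN and 44.5, 11.2 and 31.2 in DL, against 162.2, 222.0 and 102.4 in L5. No arrays overlapped between any pair of pools. OMN was 7.15-fold higher than L5 and at least 37.6-fold higher than DL, and DL was at least 5.26-fold lower than L5. The other 2 probe sets gave the same order of the pools, with OMN 3.62-fold and 3.85-fold above L5. On the tightest of them, 1450268_at, the values were 252.5, 223.0 and 237.5 in OMN and 14.7 to 16.6 in DL, within noise. L5 arrays 1 and 2 stood at 64.4 and 68.3, and array 3 just below them.

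Sgpp2 (gene chr1:78309549-78420289) had 684.4, 857.7 and 765.2 in OMN and 31.8, 9.8 and 29.8 in DL, against 438.4, 401.3 and 339.7 in L5. Its distance between the spared pools was much wider than that between OMN and L5. OMN was 1.96-fold higher than L5 and at least 29.6-fold higher than DL, and DL was at least 15.1-fold lower than L5, with log2 differences of 0.94 ± 0.28 for OMN minus L5 and -3.41 ± 0.28 for DL minus L5.

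Lrrc38 (gene chr4:143347076-143371032) was the most even of the 10 genes within OMN, with 223.2, 231.1 and 232.2, a coefficient of variation of 2.15%. It was at 0.5, 1.0 and 0.8 in DL, far under noise, against 56.8, 36.4 and 46.1 in L5. OMN was 5.01-fold higher than L5 and at least 12.5-fold higher than DL, and DL was at least 2.50-fold lower than L5. Among the 3 genes, Fign and Lrrc38 were the nearest pair, with a root mean square difference of 0.61.

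The nearest other genes for both Fign and Lrrc38 were Epha6, a receptor for axon guidance cues, and Irx5, an Iroquois transcription factor. Epha6 differed by 0.51 from Fign and 0.24 from Lrrc38, and Irx5 by 0.61 and 0.32. Epha6 averaged 505 ± 72.4 in OMN and 17.3 ± 1.03 in DL, against 84.5 ± 14.1 in L5. For Sgpp2 the nearest were Hapln1, a link protein of the extracellular matrix, and Gpr39, a zinc-sensing receptor, at 0.70 each, and Hapln1 averaged 2096 ± 162 in OMN and 287 ± 68.9 in DL, against 1759 ± 327 in L5. Hapln1, like Sgpp2, was low in DL, but its OMN and L5 arrays overlapped, where those of Sgpp2 did not.

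Markers of excitatory interneurons followed the same order of pools as these 3 genes. Of 5 such markers 4 were measured, and their summed intensity was 991 to 1253 in OMN and 156 to 304 in DL, against 415 to 519 in L5. The order rested on Slc17a6, a vesicular glutamate transporter, at 1124 ± 136 in OMN and 202 ± 73.8 in DL, against 456 ± 59.8 in L5 (adjusted p = 0.0289 for OMN against L5 and 0.0371 for DL against L5). Slc17a7 was at noise in every pool, Tlx3 in OMN and L5, and Lmx1b in DL and L5. The calls of Slc17a6 against L5 were kept in 10 of 17 alternatives for OMN and in 7 for DL. The part of such cells in the levels of Fign, Sgpp2 and Lrrc38 was not tested.

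Nrn1 and Krt25 were high in OMN, while DL and L5 overlapped. Nrn1 (chr13:36725622-36734477) had 1662.4, 1641.9 and 1213.8 in OMN and 192.6, 268.1 and 30.4 in DL, against 27.6, 60.9 and 53.2 in L5. DL arrays 1 and 2 lay above L5 and array 3 within it. OMN was 33.3-fold higher than L5 and 12.8-fold higher than DL. DL stood above L5 by its mean, with a log2 difference of 1.19 ± 0.52 that rests on those 2 arrays. Without DL array 3, which has the highest Gapdh ratio, it was 1.96, and the log2 difference for OMN minus DL was 2.66 in place of 3.43. The nearest other genes were Col5a2, a fibrillar collagen (0.74), and Cnpy1, a gene of the canopy family (0.75), neither of them as close as the neighbours of the genes above.

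Krt25 (gene chr11:99315516-99322951) had 437.5, 685.1 and 733.3 in OMN and 1.6, 27.9 and 4.2 in DL, against 18.4, 35.3 and 29.3 in L5. The DL arrays lay mostly within noise and the L5 arrays just above it. OMN was 22.6-fold higher than L5 and at least 28.7-fold higher than DL. The nearest patterns were those of Gngt1, a gamma subunit of G proteins known from rod photoreceptors (0.40), and En2, a homeodomain factor of the midbrain and hindbrain (0.60). Gngt1 averaged 340.4 ± 29.4 in OMN and 2.10 ± 1.73 in DL, against 6.90 ± 8.66 in L5. Other keratins did not accompany Krt25: of 26 measured, 17 were at noise on all OMN arrays, among them Krt26, Krt27, Krt28, Krt71 and Krt73, which are also keratins of the hair root sheath. The 8 epidermis and hair markers summed to 949 to 1134 in OMN and 1187 to 1610 in DL, against 891 to 1048 in L5, so that the DL arrays lay above all others. Krt10 and Krt1 carried most of this sum, and neither was called. Krt10 averaged 689.8 in OMN, 818 in DL and 611 in L5, and Krt1 averaged 185, 389 and 225 in the same order. Krt14 and Tchh had their highest means in OMN, and Krt5 and Krt71 were at noise in all 3 pools. Krt14, a keratin of basal epidermis, was higher in OMN than in DL, at 41.3 ± 9.61 against 7.93 ± 2.25 (log2 difference 1.25 ± 0.22, limma adjusted p = 0.0304, a call kept in 6 of 17 alternatives). Of its 3 probe sets, 1 placed all OMN arrays above all DL arrays, and the Krt14 call was lost with the mean of all probe sets. The other 25 keratins made no call in any comparison. Of the 26, 3 were at an unadjusted p under 0.05 between OMN and L5, 6 between DL and L5 and 5 between OMN and DL.

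**Figure D3:**
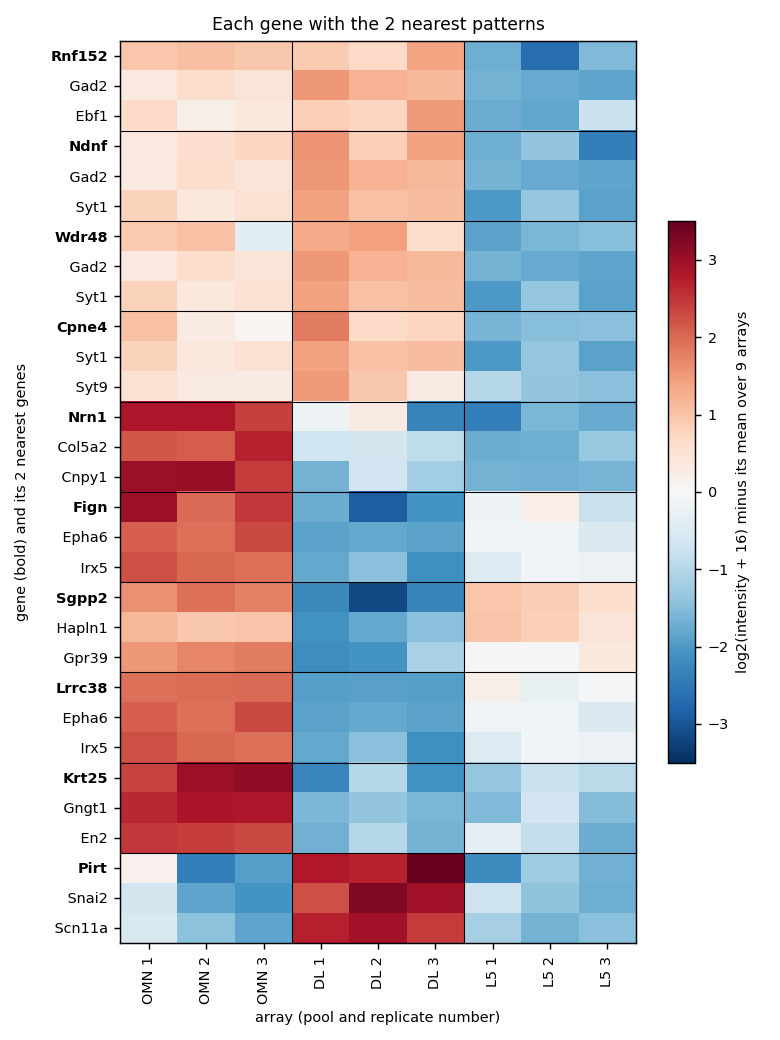
Log2(intensity + 16) of each of the 10 genes (bold) and of the 2 genes nearest to it, minus the mean over the 9 arrays, by array. Rows of a block look alike by construction. Gad2 is in the blocks of Rnf152, Ndnf and Wdr48, and Syt1 in those of Ndnf, Wdr48 and Cpne4, while those of Fign and Lrrc38 share Epha6 and Irx5.

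Pirt (chr11:66911905-66929877) was the gene high in DL alone. It had 94.7, 2.9 and 10.2 in OMN and 670.3, 629.5 and 1348.3 in DL, against 5.4, 26.1 and 14.8 in L5. OMN array 1 stood above noise while the other 2 did not, and all 3 DL arrays lay above the other 6. DL was at least 40.2-fold higher than L5. Against OMN, where 1 of 3 arrays was above noise, the means were 35.9 in OMN and 883 in DL, and the log2 difference for OMN minus DL went to -5.45 without OMN array 1, in place of -4.48. The difference of DL minus L5 went to 5.39 without L5 array 2, in place of 4.80. The second probe set gave 14.2, 29.3 and 10.8 in OMN and 100.3, 80.5 and 163.3 in DL, against 11.0, 17.4 and 20.1 in L5, the same pattern at a lower signal, with DL at least 5.81-fold above L5. The nearest other genes were Snai2, a zinc finger factor of neural crest cells, and Scn11a, a sodium channel of pain-sensing neurons, at 0.71 each. Snai2 averaged 25.6 ± 23.9 in OMN and 774 ± 256 in DL, against 30.6 ± 17.4 in L5.

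Since Pirt is known from dorsal root ganglion neurons, their markers were set beside it. Of 8 such markers 5 were measured, with a summed intensity of 34.5 to 64.6 in OMN and 394 to 558 in DL, against 96.3 to 138 in L5. Prrxl1, a homeodomain factor of sensory neurons, carried most of this sum in DL, with a mean of 376, against 52.3 in L5. In OMN it was at noise, and Avil, an actin regulator of sensory neurons, was the brightest of the 5, at 27.3 ± 6.31 in OMN and 108.1, 5.7 and 29.8 in DL, against 25.3 ± 2.33 in L5. Scn10a and Trpv1, which define pain-sensing neurons of the ganglion, were at noise on every array, with means in DL of 9.77 and 10.1. P2rx3, an ATP-gated channel of the same neurons, averaged 54.1 ± 12.3 in DL and 33.0 ± 28.7 in L5 and was at noise in OMN. Of 6 Schwann cell markers 4 were measured, and they summed to 241 to 349 in OMN and 972 to 1630 in DL, against 2047 to 2579 in L5. Pmp22 carried most of this sum in DL and L5, with means of 135 in OMN, 875 in DL and 2059.9 in L5. Sox10 averaged 143 in OMN, 354 in DL and 272 in L5, and Egr2 was at noise in every pool. The part of ganglion cells in the level of Pirt was not tested beyond these values. Glial markers also differed between the pools. Gfap, the intermediate filament of astrocytes, had 12.2, 19.1 and 22.7 in OMN and averaged 1549.6 ± 683 in DL, against 325 ± 82.4 in L5 (limma adjusted p = 0.00356 for OMN minus L5, 0.0190 for DL minus L5 and 0.000445 for OMN minus DL), while the other 7 astrocyte markers made 1 call, S100b, lower in DL than in L5. The 7 oligodendrocyte markers summed to 11989.7 to 13692 in OMN and 21106 to 23005 in DL, against 15217 to 16261 in L5, and the one called was the myelin claudin Cldn11 (adjusted p = 0.0282 for DL minus L5 and 0.0210 for OMN minus DL). Gfap and the oligodendrocyte sum were highest in DL, as Pirt and Ndnf were, and lowest in OMN. Ndnf was lowest in L5, while the OMN and L5 arrays of Pirt overlapped. Olig2, alone of the 7 oligodendrocyte markers, was lowest in DL, with means of 238 in OMN, 97.9 in DL and 191 in L5. The part of glial cells in any of the 10 genes was not tested.

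**Figure D4:**
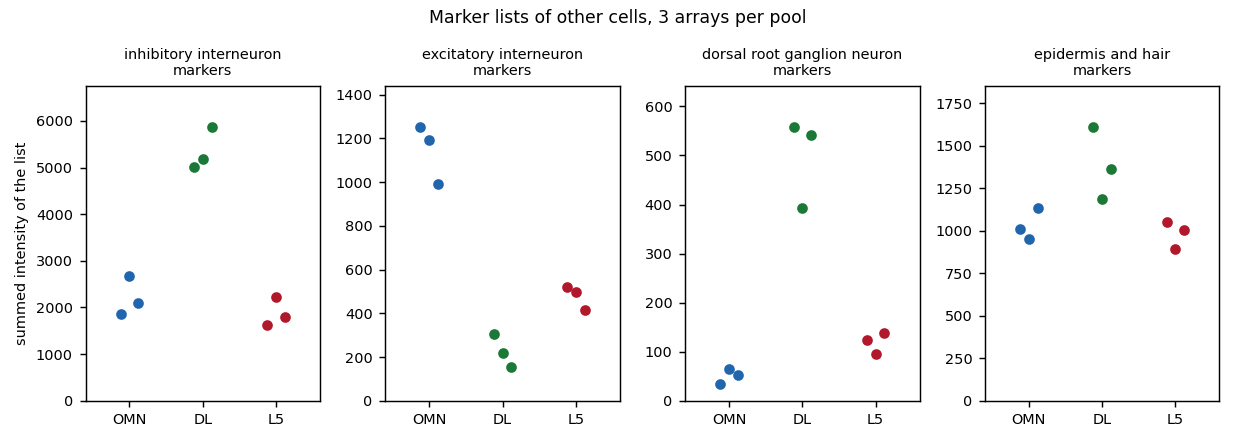
Summed intensity of the measured markers of 4 other kinds of cell on each array, by pool (axes start at 0). Inhibitory interneuron and dorsal root ganglion markers are highest in DL and excitatory interneuron markers in OMN, and the epidermis and hair markers are highest in DL as well, at 1187 to 1610.

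Lists of genes related to the 10 were tested as well. A list held genes of the pathway of a member, its relatives, or genes of the cells it is known from. They are called partner genes here, although not all of them are known to act with the member. In all, 10 lists with 150 symbols were written from what is known of the members, and 140 were measured. Earlier results of these data were known when the lists were written, so that an excess of calls over all genes is not independent of them. In limma, with p adjusted over all 18193 genes, 3 of the 140 (2.14%) were called between OMN and L5, where 2.17% of all genes were called. Between DL and L5 8 were called (5.71%), 7 of them higher in DL, where 2.55% of all genes were called, 1.28% as higher. Between OMN and DL 11 were called (7.86%), 3 higher and 8 lower in OMN, where 3.02% of all genes were called, 1.65% as higher and 1.37% as lower. The comparisons share arrays, so that their counts are not independent. The 3 calls between OMN and L5 fell to 0 without OMN array 1 or 3 or any one L5 array and to 1 without OMN array 2. Between DL and L5 the 8 calls fell to 5 without any one OMN array, DL array 2 or 3 or L5 array 3, to 4 without L5 array 1 and to 2 without L5 array 2. Between OMN and DL the 11 calls fell to 5 without any one OMN array and to 7 without DL array 1 or 3. Without DL arrays 1 and 3 together, an alternative added after the data had been seen, limma made 0 calls between DL and L5, with 29 of the 140 at an unadjusted p under 0.05, and 2 between OMN and DL.

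**Figure D5:**
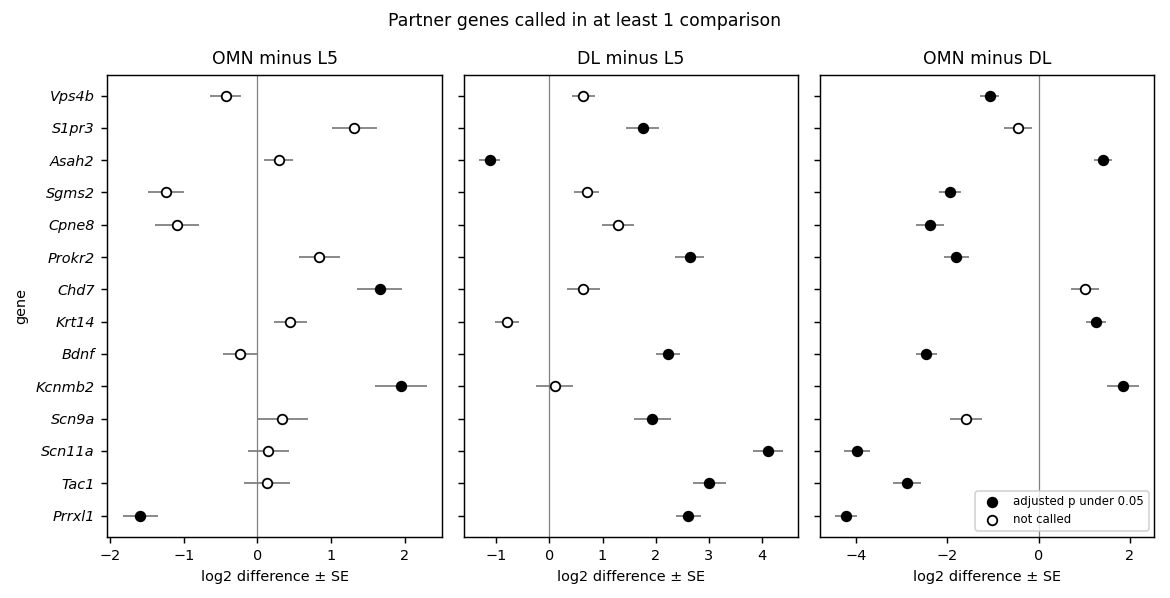
Log2 difference ± SE, from limma on log2(intensity + 16), for the 14 partner genes called in at least 1 of the 3 comparisons, with filled points where the adjusted p was under 0.05. The largest differences are those of Scn11a, Tac1 and Prrxl1, sensory genes that are high in DL.

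Sensory and nociceptor genes, the list written for Pirt, held 4 of the 8 calls between DL and L5. Most of them are on the list as genes of sensory neurons, not as genes that act with Pirt. Of 12 measured, 4 were higher in DL than in L5 and 3 were lower in OMN than in DL, and the median log2 difference of DL minus L5 was 0.41, against -0.06 over all genes. Scn11a had 609.4, 714.0 and 503.3 in DL, against 26.4, 14.4 and 18.8 in L5 (log2 difference 4.12 ± 0.28, adjusted p = 0.00307, higher in 3 of 3 DL arrays), and 49.3, 19.4 and 10.6 in OMN. Prrxl1 had 382.7, 334.4 and 411.2 in DL, against 30.7, 35.5 and 90.8 in L5 (2.62 ± 0.24, adjusted p = 0.00494), and was at noise in OMN, where it was also lower than in L5 (-1.59 ± 0.24, adjusted p = 0.0242, kept in 9 of 17 alternatives). Tac1, the substance P precursor, had 2408.1, 2032.9 and 2501.5 in DL, against 347.0, 263.3 and 219.3 in L5 (3.01 ± 0.31, adjusted p = 0.00746), while its second probe set placed DL below L5. Scn9a, a sodium channel of sensory and sympathetic neurons, was also called (1.94 ± 0.35, adjusted p = 0.0415, kept in 8 of 17 alternatives), and all 5 of its probe sets placed DL above L5. It is named here after its values were seen. Trpv1 and Trpm8, the channels that Pirt modulates, were at noise in every pool.

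Among 24 genes of sphingosine phosphate and ceramide metabolism, the partners of Sgpp2, 3 were called. S1pr3, a receptor for sphingosine 1-phosphate, averaged 151 ± 28.1 in DL, against 35.7 ± 20.7 in L5 (log2 difference 1.76 ± 0.31, limma adjusted p = 0.0380, kept in 6 of 17 alternatives), and 109 ± 36.3 in OMN. Of its 3 probe sets, 1 placed all DL arrays above all L5 arrays, and the S1pr3 call was lost with the mean of all probe sets. Asah2, a ceramidase, averaged 72.5 ± 5.09 in DL, against 176.9, 193.5 and 161.6 on the L5 arrays (-1.13 ± 0.20, adjusted p = 0.0392), and was higher in OMN than in DL at 223 ± 48.0 (1.41 ± 0.20, adjusted p = 0.0140), so that it was lowest in DL as Sgpp2 was. That order is the one on its brightest probe set, the only 1 of 3 to show it without overlap between OMN and DL. Another probe set placed all DL arrays above all L5 arrays. The calls were lost with the mean of all probe sets. They were kept in 5 of 17 alternatives for DL against L5 and in 11 for OMN against DL. Sgms2, a sphingomyelin synthase, ran the other way and averaged 14.1 ± 5.91 in OMN, against 102 ± 39.8 in DL (-1.94 ± 0.24, adjusted p = 0.00827).

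For Ndnf, 11 genes of FGF8 and prokineticin signalling, which acts with Ndnf in the migration of hormone-releasing neurons, were measured. Prokr2, a prokineticin receptor, averaged 188 ± 44.2 in DL, against 17.9 ± 11.6 in L5 (2.64 ± 0.28, adjusted p = 0.00770), and 43.6 ± 18.5 in OMN, lower than in DL (-1.80 ± 0.28, adjusted p = 0.0207). Both Prokr2 probe sets placed DL above L5, and the calls were kept in 14 and 11 of 17 alternatives. Chd7, a chromatin remodeller, was higher in OMN than in L5, at 296 ± 63.2 against 83.0 ± 22.5 (1.66 ± 0.31, adjusted p = 0.0448, kept in 8 of 17 alternatives), and averaged 140.3 ± 45.3 in DL. Of the 2 Chd7 probe sets, 1 placed all OMN arrays above all L5 arrays, and the Chd7 call was lost with the mean of all probe sets. Fgf8 itself was at noise in every pool.

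For Nrn1, 9 partner genes were measured and 1, Bdnf, a neurotrophin that induces Nrn1 in cultured neurons, was called. Bdnf had 449.3, 332.5 and 245.8 in DL, against 101.0, 42.5 and 44.0 in L5 (2.23 ± 0.23, adjusted p = 0.00672), and 56.5, 40.9 and 46.0 in OMN, lower than in DL (-2.46 ± 0.23, adjusted p = 0.00273). Nrn1 is highest in OMN, where Bdnf was lowest by its mean. The paralogue Nrn1l was at noise in every pool.

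Of 6 measured genes of the BK channel, the partners of Lrrc38, 1 was called. Kcnmb2, a beta subunit that makes the channel inactivate, had 91.3, 67.4 and 84.4 in OMN, against 2.9, 22.8 and 5.1 in L5 (1.95 ± 0.35, adjusted p = 0.0406), and 6.7, 32.9 and 1.3 in DL (1.85 ± 0.35, adjusted p = 0.0406 for OMN minus DL). Both Kcnmb2 probe sets placed OMN above the other pools. The calls were kept in 9 of 17 alternatives against L5 and in 7 against DL, where both other scalings of the arrays ended it (adjusted p up to 0.177). The pore subunit Kcnma1 averaged 1233 ± 66.6 in OMN, 989 ± 341 in DL and 1282 ± 235 in L5 and was not called. Both Lrrc38 and Kcnmb2 had their highest mean in OMN, and in L5 Lrrc38 was above noise on 3 of 3 arrays and Kcnmb2 on 1 of 3.

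The remaining lists held few calls. Of 8 copines other than Cpne4, Cpne8 was lower in OMN than in DL, at 69.6 ± 19.7 against 428 ± 93.3 (-2.38 ± 0.30, adjusted p = 0.00913). Of 7 genes of microtubule severing and its relatives, Vps4b, an ATPase that takes apart membrane-remodelling filaments, was lower in OMN than in DL, at 1339 ± 124 against 2834 ± 235 (-1.07 ± 0.21, adjusted p = 0.0467, kept in 6 of 17 alternatives). None of 11 genes of the Wdr48 complexes was called by limma, with 1, 6 and 5 at an unadjusted p under 0.05 for OMN against L5, DL against L5 and OMN against DL, and Usp1, the deubiquitinase that Wdr48 activates, averaged 348 ± 48.4 in OMN, 171 ± 22.7 in DL and 297 ± 69.6 in L5. None of 26 genes of amino acid sensing by mTORC1, the pathway of Rnf152, was called either, with 5, 6 and 5 at an unadjusted p under 0.05, and the smallest adjusted p was 0.0894 for OMN against L5 (Castor1, -1.03 ± 0.24), 0.0835 for DL against L5 (Lamtor4, with means of 658 in DL and 1384 in L5) and 0.0870 for OMN against DL (Rragd, -0.72 ± 0.17). Lamtor4 and Rragd are named after their values were seen. The median log2 differences of that list were -0.05, -0.14 and 0.08, against -0.01, -0.06 and 0.04 over all genes.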

How the data were processed

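The authors deposited 1 table of linear intensity values, 1 for each of 45101 probe sets on each of 9 Affymetrix Mouse Genome 430 2.0 arrays. Per the labels' protocols, at least 1.5 ng of RNA per sample was amplified and labelled with biotin. The software behind these intensities was, like its settings, not given in the sources used here. Each array had the same mean after 2% of its values were removed at each end, and values were used as deposited.

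After removal of 64 control probe sets, 34945 of 45037 named 1 gene in the platform annotation, 932 several and 9160 none. Gene IDs of 34741 were found in the RefSeq table, with 0 symbols changed. Of several probe sets for 1 gene, the brightest by its mean over the 9 arrays stood for it. The noise level is the highest value of 27 bacterial control probe sets, 18.3, chosen after seeing values. Folds are ratios of geometric means, and a group with values under noise was raised to it, which gives a bound.

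All 9 arrays were fitted with limma 3.58.1 in R 4.3.3 on log2(intensity + 16), with the pool as factor and the replicate number as a block, and Benjamini-Hochberg adjustment over 18193 genes. The protocol says each animal gave all 3 pools, but no label says that equal numbers mean the same animal. The script was tested on simulated data. Members, lists and tests were chosen with earlier results of these data known. Named genes were the members, up to 3 called genes of each partner list and comparison (otherwise the one with the smallest p), and the 2 genes nearest to each member. Alternatives changed the pseudocount, scaling, probe set rule, block, filter, variance model and arrays.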

Additional observations from a re-analysis of the deposited data

How the results depend on the processing

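Of 420 values of the log2 differences of the 10 genes (30 differences under 14 alternatives), 359 moved by less than the spread between replicates and 60 by more. The other 1, Ndnf between OMN and DL, reversed, to 0.06 with the mean of all probe sets of a gene. A reversal was counted only where the arrays of the 2 pools did not overlap, so that other changes of sign are among the 359 and the 60. Pirt between OMN and L5 went from 0.33 to -0.64 without OMN array 1 and to -0.23 without L5 array 1. With the mean of all probe sets, Wdr48 stood at 0.97 for OMN minus L5 and 0.78 for DL minus L5, so that OMN came above DL. Part of the 359 could not move. Leaving out an array of the third pool does not change a difference, and averaging probe sets changes nothing for the 5 genes with 1 probe set. The 6 counts of genes whose arrays do not overlap stayed within 1 of their values, those for the lower side being recomputed after the data had been seen. The lower-side counts were 0 for OMN below L5, 3 to 4 for DL below L5 and 1 to 3 for OMN below DL, the 1 with the mean of all probe sets. On the higher side they were 9 for OMN above L5 on leaving out any one array, 5 to 6 for DL above L5 and 5 to 6 for OMN above DL. Leaving out an array can only keep or raise such a count, so that this does not check how far the counts rest on single arrays. The counts of partner genes called varied with the settings. Between OMN and L5, 3 became 0 with a pseudocount of 1 (limma, with 26 at an unadjusted p under 0.05), 9 with trend and robust variances and 0 to 3 on leaving out an array. Between DL and L5, 8 became 4 with a pseudocount of 1, 13 with a pseudocount of 64, 15 with trend and robust variances and 2 to 6 on leaving out an array. Without DL arrays 1 and 3 it was 0 (29 at an unadjusted p under 0.05). Between OMN and DL, 11 became 5 to 11 on leaving out an array and 2 without DL arrays 1 and 3. The cause was not tested. Scn11a kept its calls in DL against L5 and OMN against DL under 17 alternatives, the added one without DL arrays 1 and 3 not being among them. Bdnf, Tac1 and Prrxl1 kept theirs for OMN against DL in all 17 and lost that for DL against L5 in 1 each (adjusted p 0.0512, 0.0580 and 0.0804 at most). Sgms2 and Cpne8 kept theirs in 15 each, Prokr2 in 14 and 11, and the calls of Chd7, Kcnmb2, S1pr3, Asah2, Scn9a, Vps4b and Krt14, with that of Prrxl1 for OMN against L5, were kept in 5 to 11.

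With no replicate block the calls were 4 between OMN and L5, 13 in place of 8 between DL and L5, and 14 between OMN and DL. The deviations of same-numbered arrays from their pool means had correlations between -0.03 and 0.04 in 9 pairs over 12783 genes, so that the numbers did not show pairing. Centring arrays on their medians moved the median difference of all genes between OMN and DL from 0.036 to -0.114 and gave 2 higher and 10 lower partner genes there (16.7% higher in place of 27.3%). Between OMN and L5 it gave 2 higher and 2 lower (50.0% in place of 66.7%), and quantile normalization gave 1 and 2 (33.3%).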
